A study of Homo sapiens with 6 samples.

Results

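Serpins are protease inhibitors that fold around a flexible reactive loop, which a target protease cleaves and is then trapped by. Plasminogen activators are the serine proteases that turn plasminogen into plasmin, the enzyme that dissolves fibrin and degrades pericellular matrix, and both activators are held in check by serpins. In carcinoma cells this system is known for its part in matrix breakdown and invasion, while the clade B serpins mostly act inside cells and a few serpins, such as the collagen chaperone SERPINH1, inhibit no protease. The genes described here are rows of the count table whose symbol is SERPIN followed by a clade letter from A to I and a number, together with PLAU (urokinase, uPA), PLAT (tissue-type activator, tPA) and PLAUR (the urokinase receptor, uPAR), in all 30 of 34811 genes. Of these 30 genes, 27 were serpins. Serpins with no row in the table were not analysed here, and each row held at least 1 count in some library. Gene coordinates are those of GRCh37.

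The cells were OVCAR-3, an epithelial line from a human ovarian carcinoma, transfected with a pRS HuSH-29 plasmid and selected with puromycin. OV3/SCR cells, labelled wild-type for COX-1, carried a scrambled shRNA, and OV3/COX1KD cells carried an shRNA against COX-1. Each condition was 1 clone, sequenced in 3 libraries from independent passages, so the p-values measure the spread between passages, and what belongs to the clone cannot be told apart from what belongs to the shRNA. Libraries held between 25291505 and 27391538 counts, at which 3 counts, taken as the smallest detectable level, correspond to between 0.112 and 0.120 TMM-normalized CPM (the count as a share of its library, with library sizes set by edgeR's TMM factors), a floor that covers counting error only.

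PTGS1, the gene for COX-1, had 641 to 713 counts in OV3/SCR and 456 to 501 in OV3/COX1KD libraries. Its log2 fold change was -0.45 (edgeR FDR = 1.3e-06), or 73.3% of the control. All 10 serous epithelial markers checked, PAX8, WT1 and MUC16 among them, had over 3 counts in each library. The summed level of these 10 genes was 4922 to 4962 CPM in OV3/SCR and 6439.8 to 6622 in OV3/COX1KD, with 8 of them called higher and 2 lower by edgeR, PAX8 (log2 fold change -0.76) and KRT7. Hepatocytes make most plasma serpins, and their 4 markers in the table summed to 4.46 to 5.14 CPM in OV3/SCR and up to 11.4 in OV3/COX1KD, with 1 of them over 3 counts in each library and ALB at or under 3 counts in each library. Most of this sum came from that 1 gene, APOA1, at 4.44 CPM in OV3/SCR and 10.8 in OV3/COX1KD (log2 fold change 1.29, edgeR FDR = 6.6e-10). The leukocyte list summed to 1.39 to 1.95 and 0.937 to 1.75 CPM, with 2 of its 5 genes over 3 counts in each library, the endothelial list to 2.45 to 3.22 and 2.87 to 3.56, with 2 of 3 genes over 3 counts and CDH5 at or under them, and the fibroblast list to 10.9 to 11.6 and 6.56 to 7.42, with 3 of 5 over 3 counts and LUM at or under them. The part of these marker levels in the results below was not tested. In a bulk library, fewer cells of a type and less RNA per cell cannot be told apart.

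Of the 30 genes, 16 passed the filter on low counts (edgeR's filterByExpr), 13 serpins and the 3 genes of the activators and their receptor. At an FDR under 0.01 in edgeR's quasi-likelihood test over 17309 genes, 6 were lower in OV3/COX1KD cells, PLAU, PLAUR, SERPINE2, SERPINB1, SERPINB8 and SERPINB9, and 2 were higher, SERPING1 and SERPINB7. The 6 lower genes were 37.5% of those tested, against 22.1% of all tested genes called lower, and the 2 higher genes were 12.5%, against 25.8% of all tested genes called higher. Called genes in either direction were 8 of the 16, against 47.9% of all tested genes. Scaled by total counts, 41.1% of the called genes of the whole table were higher, in place of 53.9% with TMM factors. The median log2 fold change of the 16 genes was -0.25, beside -0.0087 over all tested genes. The 16 genes had no overlap between the conditions in 12 cases, 10 of them with OV3/COX1KD below OV3/SCR and 2 above, where 30.7% and 32.5% of all tested genes, 63.2% together, showed such a separation. A fold change above 2.5 with the same FDR held for 3.92% of all tested genes, 2.34% lower and 1.58% higher, and for 1 of these genes, SERPINB9, which passed the filter only through its OV3/SCR counts and so could pass that limit only as lower. With at least 10 counts asked of every library, 0 of these genes passed it in edgeR.

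**Figure D1:**
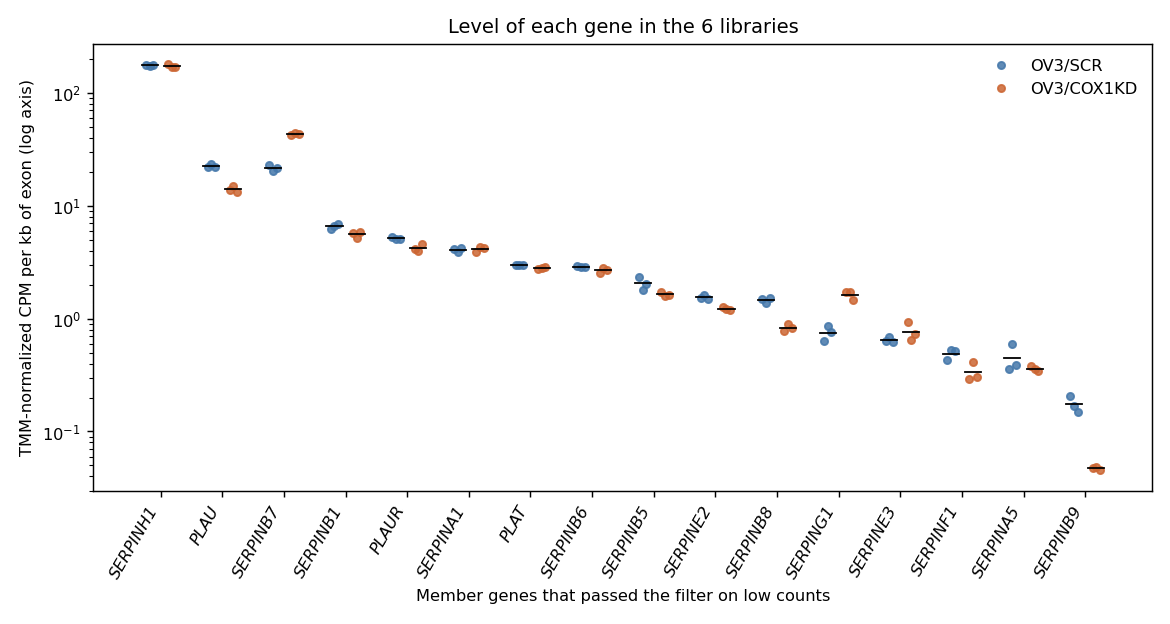
Level of each of the 16 tested genes in the 6 libraries, as TMM-normalized CPM per kb of exon on a log axis. Points are libraries (3 OV3/SCR, blue, and 3 OV3/COX1KD, orange) and short lines are group means. SERPINH1 stood highest at 174 in OV3/SCR, and the OV3/COX1KD points of SERPINB9 lay well below its OV3/SCR points while those of SERPINB7 and SERPING1 lay above.

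Levels were compared between genes per kb of exon, with exon lengths from an annotation that may not be the one used for counting. In OV3/SCR cells SERPINH1 stood first with 173 to 176 CPM per kb in the 3 libraries. PLAU followed with 22.5 ± 0.622 (SD, n = 3), and SERPINB7 with 21.6 ± 1.19, and the libraries of these 2 genes overlapped. Next came SERPINB1 at 6.60 ± 0.330, PLAUR at 5.13 ± 0.110, SERPINA1 at 4.08 ± 0.142, PLAT at 2.97 ± 0.0178 and SERPINB6 at 2.88 ± 0.0237 CPM per kb, each separated from its neighbours in the order. The 8 remaining genes were between 0.175 and 2.06 CPM per kb, and among them SERPINE2 overlapped SERPINB8 (1.55 and 1.46), SERPING1 overlapped SERPINE3 (0.748 and 0.648) and SERPINF1 overlapped SERPINA5 (0.489 and 0.448). In OV3/COX1KD cells SERPINB7 stood second at 43.1 ± 0.770 and PLAU next at 13.1 to 14.9 CPM per kb in its 3 libraries, without overlap. SERPING1 moved from rank 12 to 10, and SERPINB9 was last in both conditions.

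PLAU encodes uPA, the activator that acts at the cell surface once bound to uPAR. PLAU (ENSG00000122861, chromosome 10, 75668935 to 75677254) had 1750, 1788 and 1687 counts in OV3/SCR and 1036, 1099 and 1034 in OV3/COX1KD libraries. Each OV3/COX1KD library was thus below each OV3/SCR library, and the level fell from 66.4 ± 1.83 to 41.2 ± 2.52 CPM (SD, n = 3). The log2 fold change was -0.69 (SE, standard error, 0.046, FDR = 1.3e-10 by edgeR), or 62.0% of the control. Exons of C10orf55 lie on the opposite strand over 31.0% of the exon length of PLAU, and the library kit does not mark strand. C10orf55 itself had between 6 and 31 counts per library, few beside those of PLAU, and was called lower too (log2 fold change -1.16, edgeR FDR = 0.00546). C10orf55 passed the filter on low counts only through its OV3/SCR counts, so that a call could only be lower.

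PLAUR encodes the receptor that holds uPA at the cell surface. PLAUR (ENSG00000011422, chromosome 19, 44150247 to 44174699) had 624, 594 and 580 counts in OV3/SCR and 467, 443 and 549 in OV3/COX1KD libraries. The highest OV3/COX1KD library, replicate 3, was close to the OV3/SCR libraries, and the groups did not overlap after scaling, 22.4 to 23.4 CPM against 17.7 to 20.6. PLAUR was lower by a log2 fold change of -0.27 (SE 0.062, FDR = 9.8e-04 by edgeR), and remained past the threshold in all 14 alternatives, with an FDR of up to 0.00948.

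PLAT encodes tPA, the activator best known from fibrinolysis in vessels. PLAT (ENSG00000104368, chromosome 8, 42032236 to 42065227) had 613, 600 and 601 counts in OV3/SCR and 534, 548 and 595 in OV3/COX1KD libraries, or 23.1 ± 0.138 and 21.8 ± 0.559 CPM (SD, n = 3). Its log2 fold change was -0.082 (95% interval -0.19 to 0.03, edgeR FDR = 0.199) and passed the threshold under none of the 14 alternatives. Per kb, PLAU was 7.40 to 7.85 times as high as PLAT in OV3/SCR libraries and 4.58 to 5.28 times in OV3/COX1KD libraries, without overlap (log2 difference -0.61, n = 3, two-sided exact permutation p = 0.10, the smallest that 3 against 3 libraries allow). The size of this ratio depends on the exon lengths. Without division by length, PLAU stood at 66.4 CPM and PLAT at 23.1 in OV3/SCR, and the log2 difference was again -0.61. The substrate of both activators, plasminogen, is mainly a liver product, and PLG had 11, 5 and 4 counts in OV3/SCR and 4, 9 and 4 in OV3/COX1KD libraries, too few to be tested.

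**Figure D2:**
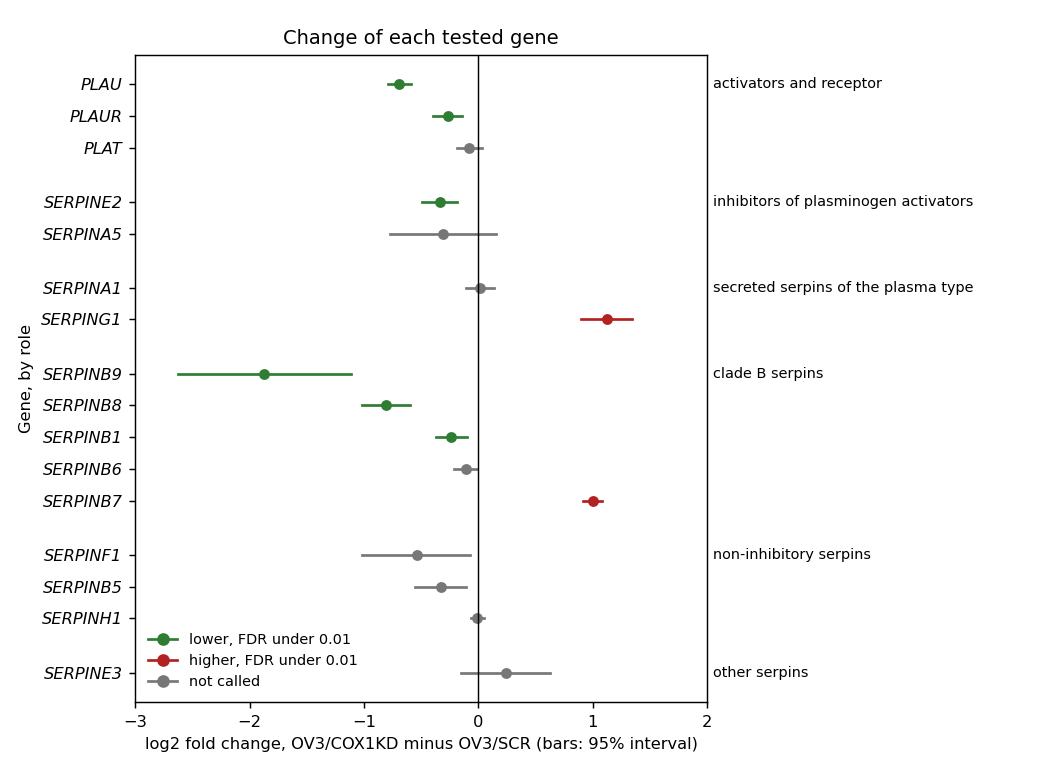
Log2 fold change of the 16 tested genes, OV3/COX1KD minus OV3/SCR, grouped by role, with 95% intervals from the edgeR fit as bars. Green points were lower and red points higher at an FDR under 0.01, and grey points were not called. The estimates ran from -1.87 for SERPINB9 to 1.12 for SERPING1, and the widest intervals belonged to the genes with the fewest counts.

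SERPINE2, protease nexin-1, inhibits thrombin and the plasminogen activators at the cell surface. SERPINE2 (ENSG00000135919, chromosome 2, 224839762 to 224904035) had 366, 377 and 348 counts in OV3/SCR and 285, 275 and 285 in OV3/COX1KD libraries, with no overlap. Its log2 fold change was -0.34 (SE 0.071, FDR = 4.2e-04 by edgeR). SERPINA5, the protein C inhibitor, had 36, 58 and 38 counts in OV3/SCR and 36, 34 and 34 in OV3/COX1KD libraries. The groups overlapped and OV3/SCR replicate 2 stood apart, so that the log2 fold change of -0.31 (95% interval -0.77 to 0.15, edgeR FDR = 0.231) was -0.057 without that library. SERPINI1, neuroserpin, an inhibitor of tPA, had 11, 4 and 11 counts in OV3/SCR and 5, 3 and 4 in OV3/COX1KD libraries and did not pass the filter. SERPINB2, an inhibitor of uPA, had at most 3 counts in each library.

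Among the secreted serpins of the plasma type, SERPING1 rose. SERPING1 encodes the C1 inhibitor, which blocks the complement proteases C1r and C1s and the contact system. SERPING1 (ENSG00000149131, chromosome 11, 57364860 to 57386644) had 122, 161 and 142 counts in OV3/SCR and 311, 311 and 281 in OV3/COX1KD libraries. All OV3/COX1KD libraries were above all OV3/SCR libraries, 11.8 ± 1.06 against 5.41 ± 0.803 CPM (SD, n = 3). The log2 fold change of 1.12 (SE 0.11, FDR = 2.2e-08 by edgeR) corresponds to a level 2.17 times that of the control.

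SERPINA1, alpha-1 antitrypsin, the main plasma inhibitor of neutrophil elastase, had 501 to 541 counts in OV3/SCR and 479 to 551 in OV3/COX1KD libraries, and the groups overlapped. Its log2 fold change of 0.015 had a 95% interval from -0.11 to 0.14 (edgeR FDR = 0.847), and changed sign in 5 of 14 alternatives. Other plasma serpins were close to the limit of detection. SERPINA10, which inhibits coagulation factor X with protein Z, had 5, 4 and 6 counts in OV3/SCR and 3, 4 and 3 in OV3/COX1KD libraries. SERPINC1 (antithrombin), SERPIND1 (heparin cofactor II), SERPINF2 (alpha-2 antiplasmin) and SERPINA6 (corticosteroid-binding globulin) were at or under 3 counts in each library, so no fold change is given and no difference was detectable at this depth.

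Clade B, the intracellular serpins, gave 13 of the 30 genes, and 10 of these lie within 543 kb on chromosome 18. In that cluster 3 genes passed the filter, SERPINB5, SERPINB7 and SERPINB8, and the other 7 were counted at most 8 times in a library. SERPINB7, also called megsin, rose and was the serpin with the largest number of counts after SERPINH1. SERPINB7 (ENSG00000166396, chromosome 18, 61420169 to 61472610) had 1604, 1404 and 1474 counts in OV3/SCR and 2819, 2908 and 3027 in OV3/COX1KD libraries. The groups lay far apart, and the level went from 56.9 ± 3.14 to 114 ± 2.03 CPM (SD, n = 3). The log2 fold change was 1.00 (SE 0.04, FDR = 5.9e-14 by edgeR), with a 95% interval from 0.91 to 1.08.

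SERPINB8, an intracellular inhibitor of furin-like proteases, begins 165 kb beyond the end of SERPINB7 and was lower. SERPINB8 (ENSG00000166401, chromosome 18, 61637263 to 61687013) had 229, 206 and 226 counts in OV3/SCR and 113, 130 and 126 in OV3/COX1KD libraries. The groups did not overlap, and HMSD covers 6.42% of its exon length on the same strand. The log2 fold change was -0.81 (SE 0.099, FDR = 8.4e-07 by edgeR). SERPINB5, or maspin, which inhibits no protease by the serpin mechanism, lies at the other end of the cluster. SERPINB5 (ENSG00000206075, chromosome 18, 61144191 to 61172318) had 235, 175 and 198 counts in OV3/SCR and 162, 150 and 161 in OV3/COX1KD libraries. After scaling the groups did not overlap, and the log2 fold change of -0.33 (SE 0.11, FDR = 0.0120 by edgeR) lay just short of the threshold, which it passed in 6 of 14 alternatives, without OV3/SCR replicate 2 among them (edgeR FDR = 0.00415, range over the alternatives 0.00155 to 0.107).

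The 11 other tested genes within 2 Mb of the cluster on chromosome 18 gave 4 genes called higher and 0 lower by edgeR. Over all tested genes, 25.8% were called higher and 22.1% lower. The median of the 11 genes was 0.14 on the log2 scale. The 7 serpins of the cluster below the filter were SERPINB2, SERPINB3, SERPINB4, SERPINB10, SERPINB11, SERPINB12 and SERPINB13. SERPINB11 had 2, 3 and 0 counts in OV3/SCR and 3, 5 and 8 in OV3/COX1KD libraries, and SERPINB10 had 6, 2 and 2 against 0, 1 and 2. Without the filter on low counts their edgeR FDR was 0.0942 and 0.278. SERPINB3 and SERPINB4, the squamous cell carcinoma antigens, had at most 2 counts in each library, and exons of SERPINB3 overlap those of SERPINB11 on the opposite strand. SERPINB3 and SERPINB4 share 25.6% and 23.8% of their transcript stretches of 50 bases with each other, so even these counts may be divided between them in a way that cannot be checked.

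**Figure D3:**
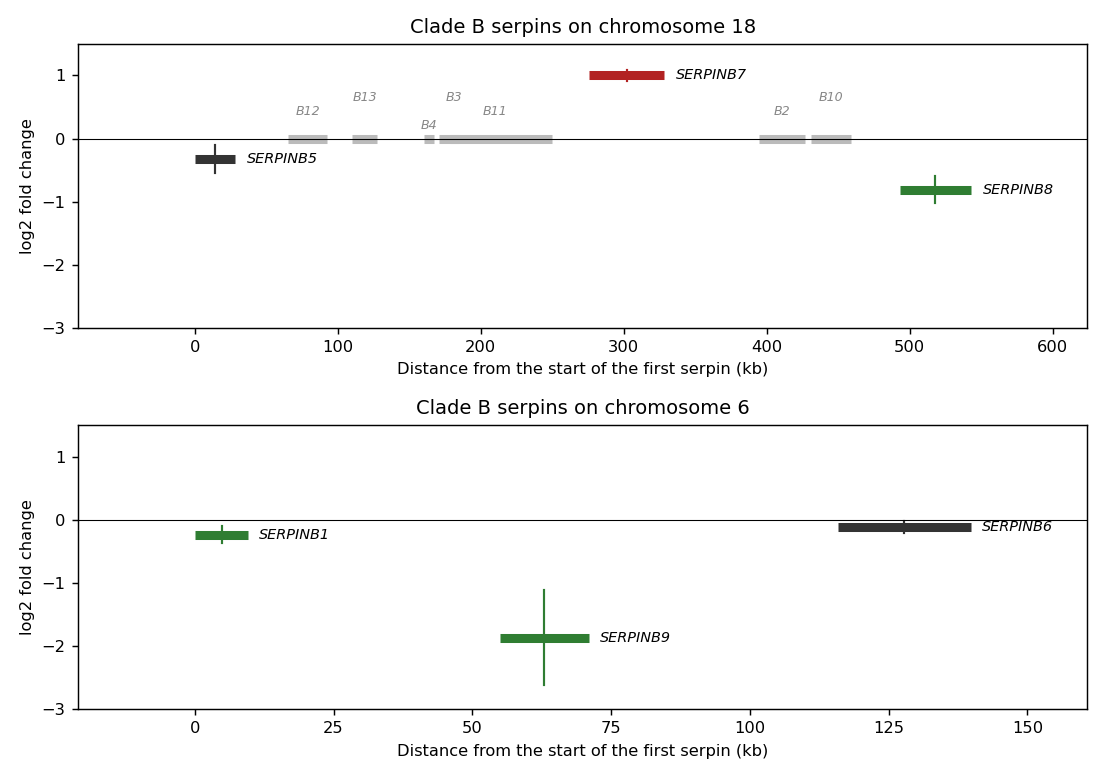
Log2 fold change of clade B serpins by position, as distance in kb from the start of the first serpin of each cluster, on chromosome 18 (upper) and chromosome 6 (lower). Thick bars span the gene, thin bars are 95% intervals, grey bars at 0 are serpins too low to be tested, and red, green and black mark higher, lower and not called. SERPINB7 at 1.00 and SERPINB8 at -0.81 lie in the same 543 kb, and SERPINB9 at -1.87 lies between SERPINB1 and SERPINB6.

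Shown next are the stretches before the transcription starts of the 3 tested serpins of the chromosome 18 cluster. They were chosen because these neighbours gave calls in both directions and each holds the letters TGANTCA, where N is any base. The element that AP-1 factors bind is the narrower form with C or G at N. Among the matches shown, TGAGTCA in SERPINB7 and SERPINB8 has that form, and SERPINB5 has none. The 250 bases before a start are taken from RefSeq on GRCh38.p14, a later build than that of the count data, all on the plus strand, and capitals mark TGANTCA, whose reverse complement has the same form. SERPINB5 (chr18:63476708-63476957), SERPINB8 (chr18:63969831-63970080) and the last of 3 starts of SERPINB7 (chr18:63777531-63777780) read as follows.
SERPINB5: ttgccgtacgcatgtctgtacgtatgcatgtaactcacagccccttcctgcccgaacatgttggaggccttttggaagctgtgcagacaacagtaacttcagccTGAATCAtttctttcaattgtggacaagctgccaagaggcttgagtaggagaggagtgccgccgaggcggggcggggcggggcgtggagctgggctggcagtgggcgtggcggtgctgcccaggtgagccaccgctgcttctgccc
SERPINB7: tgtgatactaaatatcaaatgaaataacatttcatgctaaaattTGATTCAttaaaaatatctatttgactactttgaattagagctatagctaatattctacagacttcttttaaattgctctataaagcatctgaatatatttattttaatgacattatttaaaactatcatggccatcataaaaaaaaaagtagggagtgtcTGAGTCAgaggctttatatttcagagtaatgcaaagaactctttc
SERPINB8: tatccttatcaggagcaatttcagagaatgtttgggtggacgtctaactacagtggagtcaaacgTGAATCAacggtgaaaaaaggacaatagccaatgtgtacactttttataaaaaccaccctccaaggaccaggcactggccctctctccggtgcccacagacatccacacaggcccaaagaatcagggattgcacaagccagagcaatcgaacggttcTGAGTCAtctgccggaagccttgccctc

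Counted from the start, with the base before it as -1, the match in SERPINB5 begins at -146, those in SERPINB7 at -206 and -45, and those in SERPINB8 at -185 and -28. The second start of SERPINB7 has matches at -154 and -39, and its first start has none. The match at -45 in SERPINB7 shares bases with a match to CAGACA, a SMAD-type element, on the other strand. TGANTCA occurs in 6.57% of 35116 such windows over all genes, CAGACA in 13.6%, CACGTG in 6.34% and TATAAA in 10.7%, on either strand. Of 13 tested members looked up at the start listed first, 4 hold TGANTCA (PLAUR, SERPINB5, SERPINB8 and SERPINE3), 3 hold CAGACA, 1 holds CACGTG and 2 hold TATAAA. Of those with TGANTCA, PLAUR and SERPINB8 hold TGAGTCA, and SERPINB5 and SERPINE3 hold only a form with A or T at N. Higher, lower and uncalled genes were among those with TGANTCA at any start, and a match describes letters and no binding.

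On chromosome 6 the 3 serpins SERPINB1, SERPINB9 and SERPINB6 follow each other with gaps of 45.3 and 44.8 kb. SERPINB9, the inhibitor of granzyme B, was lower, and it passed the filter only through the OV3/SCR libraries, where it was the higher. SERPINB9 (ENSG00000170542, chromosome 6, 2887504 to 2903543) had 23, 18 and 16 counts in OV3/SCR and 5, 5 and 5 in OV3/COX1KD libraries. The groups did not overlap, though the OV3/COX1KD counts were close to the floor of 3. The log2 fold change of -1.87 (SE 0.36, FDR = 1.9e-04 by edgeR) had a 95% interval from -2.63 to -1.11, and 3.41% of its transcript stretches of 50 bases also occur in transcripts of other genes.

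SERPINB1, the inhibitor of neutrophil serine proteases, had 508, 530 and 544 counts in OV3/SCR and 444, 394 and 476 in OV3/COX1KD libraries, with no overlap after scaling. Its log2 fold change of -0.24 (SE 0.066, FDR = 0.00435 by edgeR) passed the threshold, and did not pass it by DESeq2 (FDR = 0.0377) or by edgeR without OV3/COX1KD replicate 2 (0.0227) or OV3/SCR replicate 2 (0.0206) or 3 (0.0333), in a range over all alternatives from 2.7e-04 to 0.0377. SERPINB6, an intracellular inhibitor of trypsin-like proteases, had 977 to 1024 counts in OV3/SCR and 850 to 940 in OV3/COX1KD libraries. Its log2 fold change was -0.11 (95% interval -0.21 to -0.015, edgeR FDR = 0.0451), and it passed the threshold only with total count scaling among the 14 alternatives (FDR = 0.00180, range 0.00180 to 0.223). The 25 other tested genes within 2 Mb of these 3 serpins gave 4 called higher and 8 lower, at a median of -0.072 on the log2 scale. Over all tested genes, 25.8% were called higher and 22.1% lower.

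Of the serpins that inhibit no protease, SERPINH1, or HSP47, the chaperone of procollagen in the endoplasmic reticulum, gave by far the highest level. SERPINH1 (ENSG00000149257, chromosome 11, 75273101 to 75283828) had 28305 to 29451 counts in OV3/SCR and 26685 to 28721 in OV3/COX1KD libraries, and the groups overlapped at 1095 ± 9.41 and 1088 ± 31.8 CPM (SD, n = 3). Its log2 fold change of -0.0092 lay in a 95% interval from -0.069 to 0.05 (edgeR FDR = 0.797). SERPINF1, the pigment epithelium-derived factor, a secreted inhibitor of angiogenesis, had 34 to 41 counts in OV3/SCR and 22 to 31 in OV3/COX1KD libraries. The groups did not overlap, and the log2 fold change of -0.54 (95% interval -1.02 to -0.074, edgeR FDR = 0.0445) passed the threshold in none of the alternatives. SERPINE3, whose exons share 30.3% of their length with INTS6 on the opposite strand, had 42 to 47 and 42 to 61 counts, with a log2 fold change of 0.24 (95% interval -0.15 to 0.63, edgeR FDR = 0.278). Whether its counts include reads of INTS6, which had 768 to 932 counts per library, cannot be checked, as the strand setting is not given. SERPINI2 had 1 count in 1 library.

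The 35 genes listed as partners of the plasminogen system were receptors, co-receptors, activating proteases, clearance receptors, inhibitors, plasma and matrix proteins, and PLG itself. Of these genes 24 were tested, and 11 were lower and 10 higher in OV3/COX1KD cells at an FDR under 0.01 by edgeR (45.8% and 41.7%, against 22.1% and 25.8% of all tested genes). Their median log2 fold change was -0.14. Among the plasminogen receptors, ANXA2 and S100A10, the subunits of the annexin A2 heterotetramer that binds tPA and plasminogen, were lower, S100A10 by a log2 fold change of -0.72 (edgeR FDR = 2.6e-13) and ANXA2 by -0.33 (edgeR FDR = 2.1e-09). PLGRKT, a transmembrane plasminogen receptor, rose from 18.7 ± 1.29 to 34.9 ± 1.23 CPM (SD, n = 3). Among the integrins that associate with uPAR, ITGB3 fell from 13.2 ± 0.603 to 3.77 ± 0.344 CPM (SD, n = 3, log2 fold change -1.81, edgeR FDR = 3.8e-12), ITGAV and ITGB5 were lower too (log2 fold changes -0.33 and -0.20), and ITGB1 rose by 0.20 on the log2 scale (edgeR FDR = 7.8e-06).

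LRP1 and LRP2, endocytic receptors that clear complexes of activators with their inhibitors, both rose. LRP1 went from 36.8 ± 2.24 to 82.6 ± 13.7 CPM (SD, n = 3, log2 fold change 1.17, edgeR FDR = 3.6e-10), and LRP2 from 15.8 ± 0.509 to 90.7 ± 6.69 (log2 fold change 2.52, edgeR FDR = 1.5e-17). VLDLR, a receptor of the same family, was lower (log2 fold change -0.44, edgeR FDR = 5.5e-10). The membrane proteases ST14 (matriptase) and HPN (hepsin), which can activate pro-uPA, rose by 0.61 and 0.66 on the log2 scale. HRG, a plasminogen-binding plasma glycoprotein, was the other partner lower by more than 1 on the log2 scale, at 1.12 ± 0.197 and 0.534 ± 0.0936 CPM (SD, n = 3, log2 fold change -1.06, edgeR FDR = 0.00239).

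**Figure D4:**
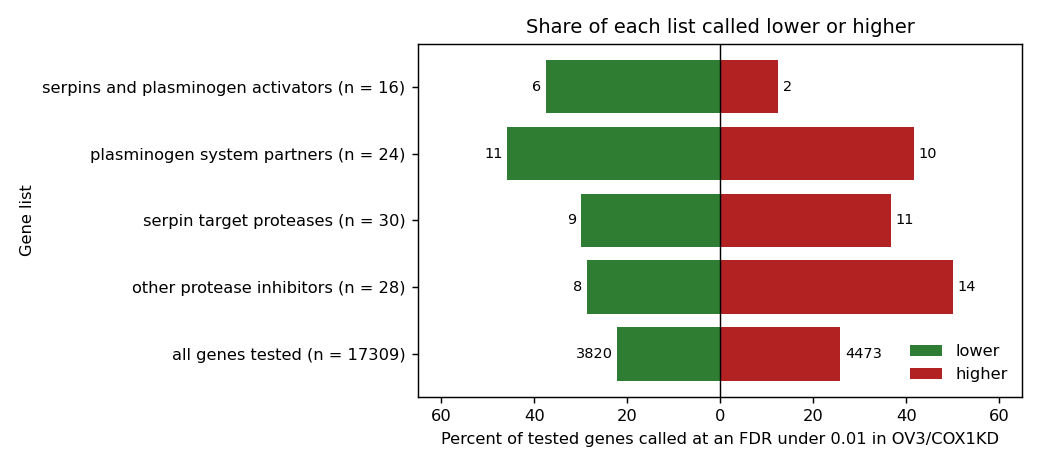
Percent of the tested genes of each list called lower (green, to the left) or higher (red, to the right) in OV3/COX1KD cells by edgeR at an FDR under 0.01, with the number of genes at each bar. The serpins and plasminogen activators have 6 lower and 2 higher of 16, and the plasminogen system partners 11 lower and 10 higher of 24.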

How the data were processed

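The deposited table holds raw counts of 34811 genes in 6 libraries of total RNA. Per the methods and processing notes, TopHat2 (2.0) placed the reads on hg19 and HTSeq made the counts per gene that the authors deposited, without normalization. The annotation and the strand setting are not given in the sources used here. Each library was assigned by its sample name in the labels.

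The test was edgeR 4.0.16 in R 4.3.3, with TMM factors, filterByExpr (17309 genes kept), glmQLFit and glmQLFTest on condition alone, Benjamini-Hochberg adjusted over all kept genes and called at an FDR under 0.01. The paper used DESeq2 at the same FDR with a fold change above 2.5, and DESeq2 1.42.0 is an alternative here. Its figures of single genes colour log2 fold changes beyond 0.5 in size at that FDR, and it reports PLAU and PLAUR as down-regulated. In edgeR here PLAU, at -0.69, was beyond 0.5 in size, and PLAUR, at -0.27, was not. The same held by DESeq2 here, with PLAU at -0.68 and PLAUR at -0.26. The standard error was the log2 fold change divided by the square root of F, and 95% intervals used it. The biological coefficient of variation, 3.21%, describes passages of 1 clone. Alternatives were RLE factors, total count scaling, no filter, at least 10 counts in every library, a replicate block, GC and length offsets, both of these, and each library left out. Coordinates, exon lengths and GC are from GENCODE 44 lifted to GRCh37 (33556 genes matched), the build of hg19. The ratio of PLAU to PLAT was compared by exact permutation.

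The rule matched 31 rows, 1 of which is not reported here, and its values enter no count of members. Every other tested member is named. Counts per library are given for the activators, their receptor, called members beyond 0.5 on the log2 scale and members below the filter with over 3 counts, and those of the other tested members were added after their values were seen. Of other lists, genes called beyond 1 on the log2 scale are named (at most 8 a list), and ANXA2, S100A10, PLGRKT, ITGB1, ITGAV, ITGB5, VLDLR, ST14, HPN, PLG, C1S, MASP1, MASP2, GZMB, FURIN, SPINT1, SPINT2, SLPI and WFDC2 were named after their values were seen. Members and lists were chosen with earlier results of these data known. The scripts were tested on simulated data.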

Additional observations from a re-analysis of the deposited data

How the results depend on the processing

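Over 14 alternatives (RLE factors, total count scaling, no filter, at least 10 counts in every library, DESeq2, the replicate block, GC and length offsets, these with the block, and each library left out), 201 of 223 log2 fold changes of tested members kept direction and side of the threshold, 4 lost a call (SERPINB1), 7 gained one (SERPINB5 and SERPINB6) and 11 changed sign (SERPINH1 and SERPINA1, not called in any). With at least 10 counts in every library, 0 members passed the 2.5-fold limit in edgeR, since SERPINB9 was removed by that filter. SERPINH1 reversed to 0.0029 with DESeq2, 0.02 with GC and length offsets without and with the block, 0.013 with no filter, 0.014 without OV3/COX1KD replicate 2 and 4.5e-05 without replicate 3, within -0.032 to 0.014 over the libraries left out. SERPINA1 reversed to -0.0025 with at least 10 counts, -0.063 with total count scaling, -0.0039 and -0.00072 without OV3/COX1KD replicates 2 and 3, and -0.012 without OV3/SCR replicate 2, within -0.012 to 0.058. With each library left out, 5 to 6 members were lower, 2 higher and 1 past 2.5-fold, 3161 to 4137 genes lower and 3963 to 4852 higher, 9 to 11 partners lower and 9 to 10 higher, 7 to 9 target proteases lower and 10 to 11 higher, 6 to 10 other inhibitors lower and 12 to 14 higher, and the log2 difference in the ratio of PLAU to PLAT, a comparison chosen after seeing the data, was -0.65 to -0.55.

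The replicate block gave 7 members lower and 2 higher, as it brought SERPINB5 past the threshold (edgeR FDR = 0.00901, range over the alternatives 0.00155 to 0.107). It gave a ratio difference of -0.61 (exact sign-flip p = 0.25, the smallest that 3 pairs allow), and moved the count of called genes to 4437 higher and 3796 lower. Deviations of same-numbered libraries correlated across genes at 0.0045, 0.042 and 0.0090, so the numbers were not taken as pairs, although the growth protocol names 3 pairs of harvests without saying which libraries formed them, and not every library correlated best with its own number.

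Members that were not tested had at most 11 counts in a library, and at this depth changes in them are poorly resolved.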

Other observations

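The list of target proteases, 35 of them in the table, was broad and not limited to proteases that serpins are known to inhibit. Of its 30 tested genes, 9 were lower and 11 higher in OV3/COX1KD cells at an FDR under 0.01 by edgeR (30.0% and 36.7%, against 22.1% and 25.8% of all tested genes). Their median log2 fold change was -0.064. C1R and C1S, complement proteases that the SERPING1 product blocks, were both higher, C1R from 6.55 ± 0.448 to 16.4 ± 0.918 CPM (SD, n = 3, log2 fold change 1.32, edgeR FDR = 3.8e-11) and C1S from 18.9 ± 0.863 to 27.9 ± 1.18 (log2 fold change 0.56, edgeR FDR = 7.0e-08). The complement proteases MASP1 (log2 fold change 0.44, edgeR FDR = 0.354) and MASP2 (-0.12, edgeR FDR = 0.514) of the same list were not called. The furin gene was lower, at a log2 fold change of -0.68 (FURIN, edgeR FDR = 4.5e-11), as was SERPINB8. GZMB, the target of the SERPINB9 product, was not called (log2 fold change -1.23, edgeR FDR = 0.0225) at 0.496 ± 0.0412 and 0.210 ± 0.162 CPM (SD, n = 3). The lower genes beyond 1 on the log2 scale were TMPRSS4 (-1.25), PROC (-1.10) and the cathepsin gene CTSV (-1.07). The higher ones besides C1R were PRTN3 (1.25) and the cathepsin gene CTSO (1.36). PROC and GZMB passed the filter only through their OV3/SCR counts, so that a call could only be lower. PRTN3 passed it only through its OV3/COX1KD counts, so that a call could only be higher.

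Among 28 tested protease inhibitors of other families, of 36 in the table, 8 were lower and 14 higher (28.6% and 50%, against 22.1% and 25.8% of all tested genes), with a median log2 fold change of 0.14. Scaled by total counts, 11 were lower and 10 higher, where 4971 of all 17309 tested genes were lower and 3468 higher. TFPI2, a Kunitz-type inhibitor of plasmin and matrix-degrading proteases, fell from 42.1 ± 1.86 to 3.82 ± 0.175 CPM (SD, n = 3, log2 fold change -3.46, edgeR FDR = 5.1e-18). PI3, or elafin, an elastase inhibitor, fell from 103 ± 4.17 to 28.1 ± 0.328 CPM (SD, n = 3, log2 fold change -1.88, edgeR FDR = 1.5e-17). Of the same WFDC family, WFDC2 was lower (log2 fold change -0.29, edgeR FDR = 4.1e-06) and SLPI was not called (log2 fold change -0.092, edgeR FDR = 0.0112). BIRC3 (-1.89) and CST6 (-1.68) were lower from under 1 CPM, and both passed the filter only through their OV3/SCR counts, so that a call could only be lower. PI15, a trypsin inhibitor, rose from 9.45 ± 0.844 to 53.8 ± 2.23 CPM (SD, n = 3, log2 fold change 2.51, edgeR FDR = 4.9e-17), and A2ML1 rose by 1.32 on the log2 scale. SPINT2, an inhibitor of matriptase and hepsin, rose from 1886 ± 23.1 to 2517 ± 46.0 CPM (SD, n = 3, log2 fold change 0.42, edgeR FDR = 6.8e-11). The related gene SPINT1 was not called (log2 fold change -0.06, edgeR FDR = 0.117).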
